A study of Mus musculus with 28 samples.

Results

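The genes described here encode the 7 cyclin-dependent kinase (CDK) inhibitors of the Cip/Kip and INK4 families. The Cip/Kip genes are Cdkn1a (p21), Cdkn1b (p27) and Cdkn1c (p57), and the INK4 genes are Cdkn2a (p16 and Arf), Cdkn2b (p15), Cdkn2c (p18) and Cdkn2d (p19). They were taken by symbol from a table of 24079 genes, all 7 were found, and all 7 passed the filter on low counts that left 15099 genes for testing. The 28 RNA-seq libraries come from mouse embryonic fibroblasts made cancerous with RAS and DNP53, a RAS cancer cell line of strain C57BL/6x129Sv in the labels. All libraries share this transformation, and each library comes from 1 of 4 clones, so a tagged or untagged group is 2 clones with 1 library each, while the mCherry groups hold libraries of clone 18 lines alone. Cyclin D1 carries a tag in clones 14 and 12 (labelled Ctag-Cyclin D1) and no tag in clones 18 and 25. Both tagged clones were transfected overnight with siRNA against the FLAG or HA tag, with a Qiagen, Nature or Life siRNA (names from the labels), which target cyclin D1 itself, or with a control siRNA labelled SCR. They were also treated overnight with 20 ng/mL leptomycin B, which blocks export from the nucleus by XPO1, or left untreated. Both untagged clones received FLAG, HA or SCR siRNA. Clone 18 with a FLAG-mCherry-HA/PURO construct or an mCherry/PURO construct gave 3 libraries each, 2 with HA siRNA and 1 with FLAG siRNA. No label says that libraries of a clone come from separate cultures, so p-values reflect only how far these libraries scatter around their clone and treatment levels, which may be technical.

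CDK inhibitors restrain the kinases that drive cells from G1 into DNA replication. INK4 proteins bind CDK4 and CDK6 and keep the D-type cyclins, cyclin D1 among them, from activating these kinases. Cip/Kip proteins bind complete cyclin and CDK complexes and inhibit those of CDK2, and cyclin D and CDK4 complexes can hold p21 and p27 away from CDK2. p21 is a classical target gene of p53, while p27 is controlled largely through its destruction by the SKP2 ubiquitin ligase. Cdkn2a encodes p16 and, from an alternative first exon, Arf, which restrains MDM2 and so protects p53, and both rise in fibroblasts that receive an activated RAS gene.

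Total counts ran from 26558256 to 81512769 per library. The largest total and the lowest number of genes detected, 14132, belonged to clone 12 with SCR siRNA, and Rn45s, the ribosomal RNA precursor, took over 2% of the counts in 4 libraries. Ccnd1, the cyclin D1 gene that the siRNAs target, stood in tagged clones at 4.72% (Nature), 5.23% (Life), 12.9% (FLAG), 18.3% (HA) and 27.0% (Qiagen) of its SCR mean, and in untagged clones at 84.8% (FLAG) and 96.5% (HA). The clones are not alike as fibroblasts. In CPM, which are counts scaled to the size of each library, Col1a1 was at 0.292 to 0.967 in clone 14, against 343 to 710 CPM in clone 12, and Thy1 was at 0 to 0.0494 CPM, against 9.37 to 33.1 CPM. Col1a2, Pdgfra, Pdgfrb and Fn1 were lower in clone 14 too, without overlap. S100a4 and Vim reached higher there, with ranges that overlap. S100a4 was at 2481 to 4050 CPM in clone 14, against 1467 to 2879 CPM in clone 12. Vim was at 4203 to 7919 CPM, against 4008 to 6139 CPM. Summed over 9 fibroblast markers the range was 7296 to 12475 CPM in clone 14, against 10733 to 14153 CPM in clone 12, with Vim the largest part of both sums. Summed over 5 epithelial markers it was 970 to 1958 CPM in clone 14, against 87.4 to 229 CPM in clone 12, most of it Krt18. Cdh1, the epithelial cadherin, was at 21.7 to 40.0 CPM in clone 14, against 0.227 to 1.16 CPM in clone 12. Over the 28 libraries, 4 leukocyte markers summed to 2.41 to 6.82 CPM (Ptprc at most 0.459), 4 endothelial markers to at most 1.95, 3 myogenic markers to at most 13.1 (nearly all Des) and 3 neural markers to 27.7 to 109 CPM, with Sox2 at up to 97.9 CPM.

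Per length of transcript, Cdkn2a was by far the most abundant of the 7 transcripts and Cdkn1c the least. Over the 28 libraries Cdkn2a had a median of 288 CPM per kb of exon (range 125 to 493) and ranked first of the 7 in 28 of 28 libraries. It made up between 69.2% and 85.5% of the summed CPM per kb of the 7 genes. Cdkn2b had a median of 33.9 CPM per kb and ranked second in 27 libraries. Cdkn1b, Cdkn2d, Cdkn1a and Cdkn2c followed with medians of 12.2, 8.34, 8.29 and 5.61 CPM per kb, and their ranges overlapped. Cdkn1c ranked last in 28 of 28 libraries, with a median of 0.319 CPM per kb and a highest value of 3.28. Exon lengths are the union of annotated exons in GENCODE M21, from 1172 bp for Cdkn2a to 4552 bp for Cdkn1b. The count table holds 1 row for Cdkn2a, so transcripts for p16 and Arf cannot be told apart in it.

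**Figure D1:**
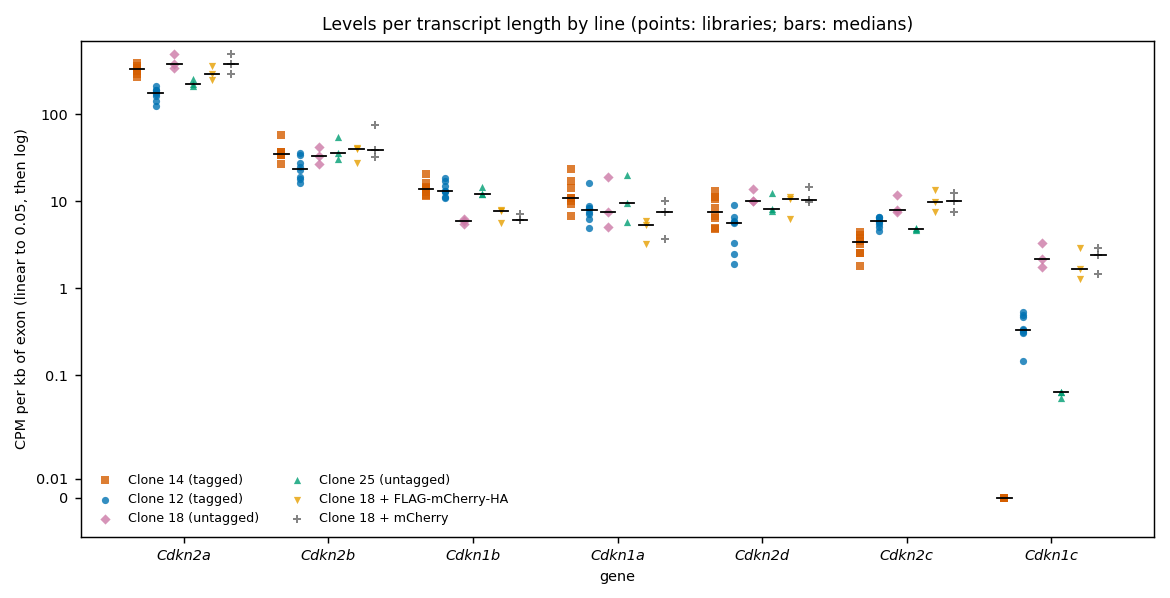
Level of each gene per length of transcript (vertical axis, CPM per kb of exon, linear to 0.05 and logarithmic above), 1 point per library, grouped by gene and line on the horizontal axis, with black bars for the median of each line. Cdkn2a lies at 125 to 493 CPM per kb, above every other member in each library, and Cdkn1c lies at 0 in clone 14.

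The promoter sequences of the genes that the results turn on are shown here, from RefSeq on GRCm38.p6, each from 250 bases before to 50 bases after an annotated start, read 5′ to 3′ on the gene's strand. The table had entries for 6 of the 7 genes. Cdkn1a and Cdkn2a are each shown for 2 starts, since a symbol count pools both, and Cdkn2d for its 1 start. Capitals mark matches, on either strand, to 3 motifs. These are CATG followed by any 6 bases and CATG, the core of a pair of p53 half-sites, GGGCGG, the GC box bound by SP1, and any of TTTCGCGC, TTTGGCGC, TTTCCCGC or TTTGCCGC, a core bound by E2F factors. Matches to different motifs did not overlap in these windows. Cdkn1a upstream start, chr17:29090729-29091028 (+):
Cdkn1a upstream: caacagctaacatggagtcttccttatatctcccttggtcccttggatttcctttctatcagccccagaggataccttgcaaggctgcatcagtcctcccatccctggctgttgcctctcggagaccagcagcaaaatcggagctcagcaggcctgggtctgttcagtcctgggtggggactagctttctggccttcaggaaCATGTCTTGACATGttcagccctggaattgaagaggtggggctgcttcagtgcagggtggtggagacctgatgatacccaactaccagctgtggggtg
Cdkn1a downstream start, chr17:29093519-29093818 (+):
Cdkn1a downstream: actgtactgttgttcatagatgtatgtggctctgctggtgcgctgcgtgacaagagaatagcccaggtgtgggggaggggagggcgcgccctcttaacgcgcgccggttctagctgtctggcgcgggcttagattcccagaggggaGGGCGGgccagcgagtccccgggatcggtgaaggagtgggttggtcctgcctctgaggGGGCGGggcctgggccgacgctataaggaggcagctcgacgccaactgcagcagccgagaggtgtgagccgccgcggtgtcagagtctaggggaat
Cdkn2a upstream start, chr4:89294570-89294869 (-), the exon that opens Arf:
Cdkn2a upstream: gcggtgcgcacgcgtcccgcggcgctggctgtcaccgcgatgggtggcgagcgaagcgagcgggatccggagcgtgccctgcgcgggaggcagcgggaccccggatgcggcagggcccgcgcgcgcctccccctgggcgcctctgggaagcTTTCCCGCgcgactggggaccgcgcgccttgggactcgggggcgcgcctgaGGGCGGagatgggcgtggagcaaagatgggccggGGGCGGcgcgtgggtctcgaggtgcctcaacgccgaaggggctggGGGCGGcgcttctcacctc
Cdkn2a downstream start, chr4:89282143-89282442 (-), the exon that opens p16:
Cdkn2a downstream: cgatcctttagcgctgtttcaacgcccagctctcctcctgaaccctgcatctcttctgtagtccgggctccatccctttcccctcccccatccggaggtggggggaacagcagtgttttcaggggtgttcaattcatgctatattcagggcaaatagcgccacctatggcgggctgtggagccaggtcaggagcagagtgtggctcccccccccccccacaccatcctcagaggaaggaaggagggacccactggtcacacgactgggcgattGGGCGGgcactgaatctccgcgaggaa
Cdkn2d start, chr9:21291160-21291459 (-):
Cdkn2d: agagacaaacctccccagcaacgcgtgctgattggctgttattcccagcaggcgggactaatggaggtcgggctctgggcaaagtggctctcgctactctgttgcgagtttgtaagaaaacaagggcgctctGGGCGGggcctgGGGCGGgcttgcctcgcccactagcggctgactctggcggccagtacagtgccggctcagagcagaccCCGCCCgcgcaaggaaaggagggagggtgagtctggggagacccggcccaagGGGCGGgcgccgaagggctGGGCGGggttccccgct

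The upstream Cdkn1a window held the p53 core 1 time, 48 bases before the start, and none of the other windows searched, which cover 6 of the 7 genes, held it. Of 32851 promoter windows of the same length, 0.712% held it. The upstream Cdkn2a window held 1 E2F core, which 2.26% of windows held. GC boxes were found 5 times in the Cdkn2d window, 3 times in the upstream Cdkn2a window and 2 times in the downstream Cdkn1a window, and 35.7% of windows held at least 1. These matches describe letters, and no binding was measured.

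Cdkn1a (gene 12575, chromosome 17, 29090979 to 29100722, mm10) was the member that moved most often between treatments. Against SCR siRNA, where it stood highest, it fell with all 5 targeting siRNAs in tagged clones and with both tag siRNAs in untagged clones. With FLAG siRNA it had 35.3 CPM in clone 14 and 22.1 CPM in clone 12, and with HA siRNA 23.9 and 17.3 CPM, against 82.9 and 57.3 CPM with SCR siRNA in the same clones. With the cyclin D1 siRNAs it had 38.9 and 26.9 CPM (Qiagen), 60.1 and 31.6 CPM (Nature) and 50.01 and 29.31 CPM (Life) in clones 14 and 12. Untreated cells had 38.7 and 29.6 CPM in these clones. All cyclin D1 siRNAs lay above the untreated level in clone 14, Qiagen siRNA only slightly, and they lay on both sides of it in clone 12. Within each clone every targeting siRNA lay below that clone's SCR library, but the 2 clones overlap between groups: Nature siRNA in clone 14 exceeded SCR siRNA in clone 12.

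Set against SCR siRNA in tagged clones, the mean fell to 29.4% (HA), 41.0% (FLAG), 47.0% (Qiagen), 56.6% (Life) and 65.4% (Nature). In the same order, the 95% intervals of the log2 fold change were -2.09 to -1.44, -1.62 to -0.98, -1.41 to -0.78, -1.16 to -0.53 and -0.96 to -0.34, with edgeR adjusted p of 6.22e-06, 0.000106, 0.000181, 0.00158 and 0.00958. Cdkn1a was the only member called with FLAG, HA or Qiagen siRNA, and 1 of 2 called with Nature or Life siRNA. Of all genes tested, 4.11% (HA), 2.17% (FLAG), 5.33% (Qiagen), 8.29% (Life) and 8.56% (Nature) were called in either direction. The Nature call rests on clone 12: without its Nature library the log2 fold change was -0.46 (adjusted p = 0.230), and it was -0.62 (adjusted p = 0.0958) when clone 12 with SCR siRNA was left out. All calls between treatments need the level of each clone in the model: without it 0 members were called in any of these comparisons.

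The order of the siRNAs for Cdkn1a differed from their order for cyclin D1 itself. Nature and Life siRNA left the least Ccnd1 and the most Cdkn1a, while HA siRNA left 18.3% of Ccnd1 and the least Cdkn1a. Pooled, the tag siRNAs gave 24.6 CPM of Cdkn1a, against 39.5 CPM with the cyclin D1 siRNAs, a log2 fold change of -0.67 (SE 0.10, edgeR adjusted p = 0.000295; -0.75 in clone 14 and -0.58 in clone 12). In this comparison, which uses no SCR library, 6.99% of genes were called in either direction. HA siRNA lay below FLAG siRNA in 4 of 4 clones (log2 fold change -0.55, SE 0.11, edgeR adjusted p = 0.00528), where 3.33% of genes were called in either direction. That call ended without the HA library of clone 14 (-0.53, adjusted p = 0.0528).

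**Figure D2:**
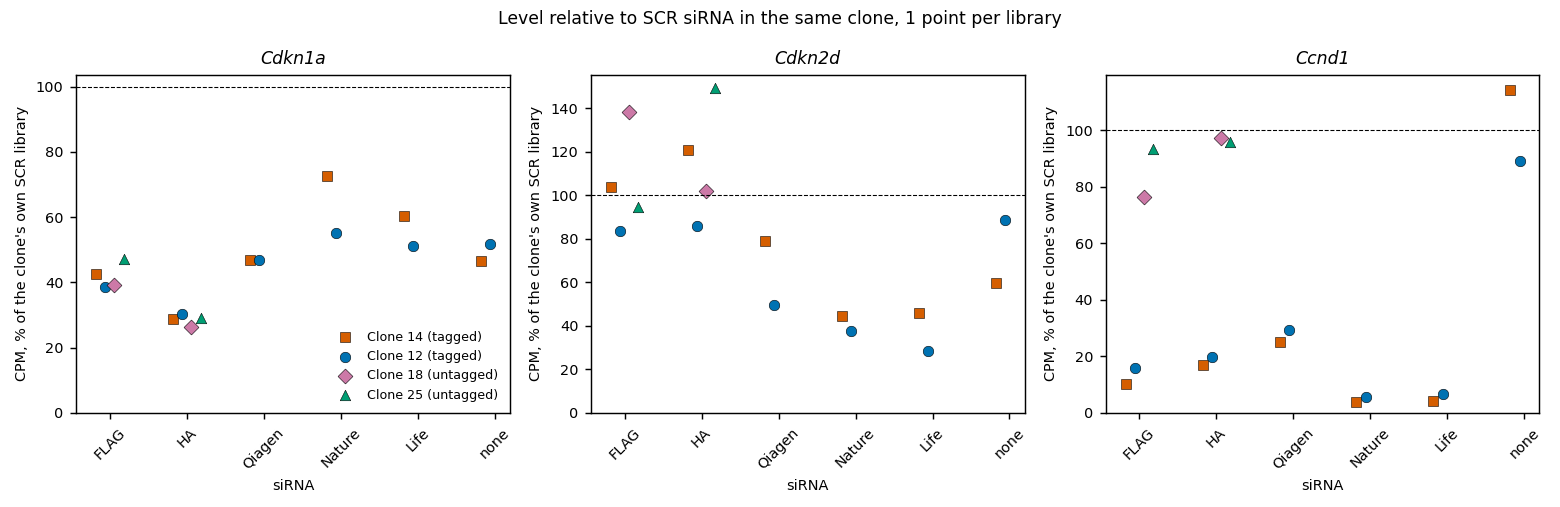
Level of Cdkn1a, Cdkn2d and Ccnd1 as a percentage of the SCR library of the same clone (vertical axis, from 0), by siRNA on the horizontal axis, 1 point per library; the dashed line is SCR and none is untreated. Cdkn1a lies below 100% in every library shown, tagged or untagged. Ccnd1 with FLAG or HA siRNA is far below 100% in the tagged clones and closer to it in the untagged ones. Among the untagged libraries Ccnd1 is lowest with FLAG siRNA in clone 18 (1014 CPM, against 1329 CPM with SCR siRNA).

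In untagged clones, whose cyclin D1 carries no tag for these siRNAs to reach, Cdkn1a fell with both tag siRNAs too. With FLAG siRNA it had 26.3 CPM in clone 18 and 33.5 CPM in clone 25, and with HA siRNA 17.7 and 20.7 CPM, against 67.3 and 71.1 CPM with SCR siRNA. The groups did not overlap. Cdkn1a was called with each siRNA, where 2.02% (FLAG) and 2.16% (HA) of genes were called in either direction. Pooled, the log2 fold change was -1.54 (SE 0.12, 95% interval -1.80 to -1.28, edgeR adjusted p = 2.91e-06), beside -1.53 (SE 0.12, 95% interval -1.79 to -1.27, adjusted p = 2.00e-06) in tagged clones. The difference between these responses was 0.0045 on the log2 scale (SE 0.18, 95% interval -0.38 to 0.39, adjusted p = 1), where 0.00662% of genes, 1 gene, were called. Of all genes tested, 3.86% were called in either direction in tagged and 2.68% in untagged clones, and Cdkn1a was the only member called in each. Ccnd1 itself differed between the responses by -2.55 (SE 0.28, adjusted p = 0.000804).

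SCR siRNA and the untreated state gave Cdkn1a different levels. With SCR siRNA it had 82.9 and 57.3 CPM in clones 14 and 12, against 38.7 and 29.6 CPM in untreated cells (log2 fold change 1.02, SE 0.15, 95% interval 0.71 to 1.34, edgeR adjusted p = 0.00123). It was the 1 member called, among 5.29% of genes called in either direction. Against untreated cells, the tag siRNAs still gave a lower level, a log2 fold change of -0.51 (SE 0.13, adjusted p = 0.00671), while the cyclin D1 siRNAs were at 0.16 (SE 0.12, 95% interval -0.10 to 0.42, adjusted p = 0.362). In these comparisons 32.6% and 23.7% of genes were called in either direction. The tag siRNA call ended without the untreated library of clone 12 (-0.39, adjusted p = 0.0995). The comparisons with SCR siRNA share its libraries, and those with untreated cells share theirs. Leptomycin B gave 33.2 and 25.5 CPM, against 38.7 and 29.6 CPM in untreated cells (log2 fold change -0.22, 95% interval -0.53 to 0.09, adjusted p = 0.400).

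Cdkn1b (gene 12576, chromosome 6, 134920401 to 134925525) rose with leptomycin B and was not called with any siRNA. With leptomycin B it had 92.9 CPM in clone 14 and 84.5 CPM in clone 12, its highest values in the 28 libraries, against 53.1 and 50.8 CPM in untreated cells. The log2 fold change was 0.77 (SE 0.16, 95% interval 0.43 to 1.12, edgeR adjusted p = 0.00591; 0.81 in clone 14 and 0.73 in clone 12), the 1 member called among 9.99% of genes called in either direction. Without the untreated library of clone 12 or of clone 14 the adjusted p was 0.0623 and 0.0536, at log2 fold changes of 0.76 and 0.77. Xpo1, the gene of the exporter that leptomycin B blocks, rose as well (0.87, SE 0.15, adjusted p = 0.00135). With the 5 targeting siRNAs in tagged clones, Cdkn1b had log2 fold changes between -0.20 and 0.09 against SCR siRNA and was not called; with Qiagen siRNA the clones moved in opposite directions, -0.37 in clone 14 and 0.42 in clone 12. For the pooled tag siRNAs the 95% interval was -0.35 to 0.24 and for the pooled cyclin D1 siRNAs -0.24 to 0.32.

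Cdkn2d (gene 12581, chromosome 9, 21288459 to 21291421), which encodes p19 of the INK4 family, was lower with the cyclin D1 siRNAs and not with the tag siRNAs. In clones 14 and 12 it had 13.3 and 5.20 CPM with Qiagen, 7.50 and 3.94 CPM with Nature and 7.77 and 2.98 CPM with Life siRNA, against 16.9 and 10.5 CPM with SCR siRNA. Nature and Life siRNA did not overlap with SCR siRNA, and Qiagen siRNA did. The pooled log2 fold change was -1.12 (SE 0.27, 95% interval -1.69 to -0.55, edgeR adjusted p = 0.0212), where 5.40% of genes were called in either direction. By siRNA it was -1.29 with Nature (adjusted p = 0.0310), -1.42 with Life (adjusted p = 0.0203) and -0.64 with Qiagen (adjusted p = 0.337).

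With FLAG siRNA Cdkn2d had 17.5 and 8.76 CPM in clones 14 and 12, and with HA siRNA 20.4 and 9.00 CPM. The pooled tag siRNAs were at -0.02 (95% interval -0.64 to 0.60) against SCR siRNA. Set directly against the cyclin D1 siRNAs, the tag siRNAs gave a higher level, with a log2 fold change of 1.10 (SE 0.22, edgeR adjusted p = 0.00517; 1.04 in clone 14 and 1.16 in clone 12). Against untreated cells, at 10.1 and 9.30 CPM in clones 14 and 12, the cyclin D1 siRNAs were at -0.69 (95% interval -1.28 to -0.11, adjusted p = 0.0783). The pooled call ended when SCR siRNA in clone 12 (-1.08, adjusted p = 0.274), SCR siRNA in clone 14 (-1.16, adjusted p = 0.0754) or Life siRNA in clone 12 (-1.01, adjusted p = 0.0562) was left out, and the tag against cyclin D1 call without the HA library of clone 14 (0.97, adjusted p = 0.0654). The Nature and Life calls each ended without any 1 of their 4 libraries, at adjusted p of 0.0526 to 0.267 for Nature and 0.0538 to 0.209 for Life siRNA.

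**Figure D3:**
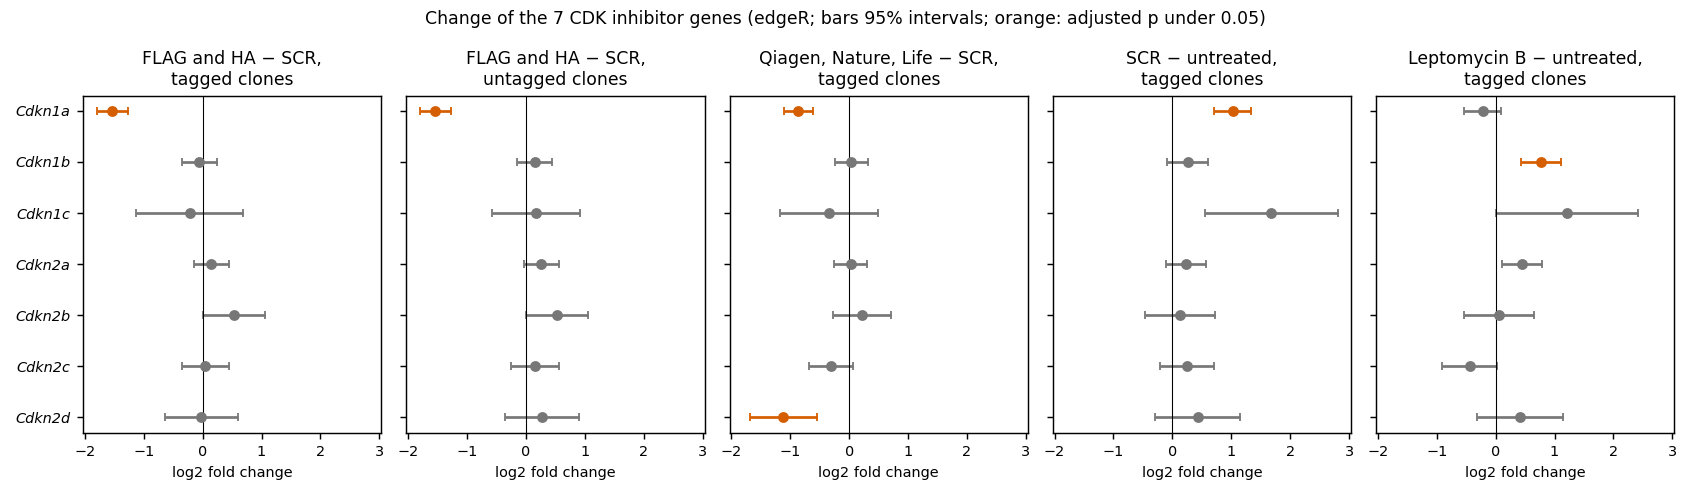
Log2 fold change (horizontal axis) of each of the 7 genes (vertical axis) in 5 comparisons, points with 95% intervals, orange where the edgeR adjusted p over all genes was under 0.05. Cdkn1a is at -1.53 and -1.54 with tag siRNA in tagged and untagged clones, Cdkn2d is orange with the cyclin D1 siRNAs, and Cdkn1b with leptomycin B.

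Cdkn2a and Cdkn2b (gene 12578, chromosome 4, 89274473 to 89294619, and gene 12579, chromosome 4, 89306289 to 89311032) lie 11669 bp apart on the same strand, and neither was called in a comparison of siRNAs or treatments. Cdkn2a had 365 and 225 CPM with FLAG siRNA and 420 and 221 CPM with HA siRNA in clones 14 and 12, against 372 and 192 CPM with SCR siRNA. Its log2 fold change was 0.15 (95% interval -0.15 to 0.44) with the tag siRNAs and 0.03 (95% interval -0.25 to 0.30) with the cyclin D1 siRNAs. With leptomycin B it had 459 and 210 CPM, against 310 and 168 CPM in untreated cells (0.45, SE 0.16, edgeR adjusted p = 0.0895). Cdkn2b had its largest value against SCR siRNA with HA siRNA. It had 80.1 and 46.7 CPM with HA siRNA in clones 14 and 12, against 48.8 and 26.7 CPM with SCR siRNA (0.76, SE 0.28, adjusted p = 0.134). In untagged clones it had 46.2 and 75.9 CPM with HA siRNA in clones 18 and 25, against 36.9 and 42.8 CPM with SCR siRNA (0.60, SE 0.28, adjusted p = 0.489). Cdkn2b with HA siRNA was thus above SCR siRNA in 4 of 4 clones, without passing the test. The same held for Cdkn2b with FLAG siRNA (log2 differences of 0.07 to 0.67) and for Cdkn2a with HA siRNA (0.14 to 0.26). Cdkn2a with FLAG siRNA was at -0.02 in clone 14 and above SCR siRNA in the other clones.

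Against untreated cells the tag siRNAs put both genes just short of the threshold, with Cdkn2a at 0.37 (adjusted p = 0.0516) and Cdkn2b at 0.66 (adjusted p = 0.0521). DESeq2 called both there, at adjusted p of 0.0193 and 0.0198. Over the 28 libraries, after the mean of each line was subtracted, Cdkn2a and Cdkn2b had a Pearson r of 0.69 in log2 CPM, the highest of the 21 pairs of members. The libraries share depth and composition effects, which such a value includes. For Cdkn1a the r with the other 6 members was between -0.27 and 0.28.

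Cdkn2c (gene 12580, chromosome 4, 109660876 to 109666756), which encodes p18, was not called in a comparison of siRNAs or treatments. It had 6.85 and 12.2 CPM with Qiagen siRNA in clones 14 and 12, against 10.0 and 17.7 CPM with SCR siRNA (log2 fold change -0.54, SE 0.22, edgeR adjusted p = 0.194). With leptomycin B it had 4.81 and 13.6 CPM, against 6.86 and 17.7 CPM in untreated cells (-0.44, SE 0.22, adjusted p = 0.228). By clone these changes were -0.55 and -0.53 with Qiagen siRNA and -0.51 and -0.38 with leptomycin B in clones 14 and 12.

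Cdkn1c (gene 12577, chromosome 7, 143458339 to 143461059), an imprinted gene whose product p57 restrains growth, differed by clone and was not detected in clone 14. None of the 8 libraries of clone 14 had a count, which allows up to 0.0453 to 0.114 CPM per library at a limit of 3 counts. Clone 12 had 0.293 to 1.09 CPM (18 to 80 counts), clone 18 had 3.53 to 6.69 CPM and clone 25 had 0.111 to 0.131 CPM (5 to 6 counts). The mean was at least 9.06-fold lower in clone 14 than in clone 12, taken at the limit per library. Between the untagged clones the log2 fold change of clone 18 over clone 25 was 5.21 (SE 0.35, edgeR adjusted p = 3.74e-07). The tag siRNAs gave a call against untreated cells (1.46, SE 0.48, adjusted p = 0.0405), among the 32.6% given above. It rests on clone 12, with 1.00 CPM with FLAG and 0.669 CPM with HA siRNA, against 0.293 CPM untreated, and without that untreated library the value was 0.06; the call ended without any 1 of the 6 libraries (adjusted p 0.0507 to 1). An antisense gene, Gm44732, overlaps Cdkn1c, and AC167363.2 overlaps Cdkn1a on the opposite strand; the strand setting of the counting is not known here, so reads of these pairs may not be told apart.

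Clones differed in most members. Of the 7, 4 were higher and 2 lower in clone 14 than in clone 12, where 29.2% of all genes were called higher and 33.4% lower. Cdkn2a had 310 to 459 CPM in the 8 libraries of clone 14, with a median of 386, against 146 to 249 CPM with a median of 206 in clone 12, and the clones did not overlap (log2 fold change 0.94, SE 0.08, edgeR adjusted p = 1.09e-08). Cdkn2b was higher by 0.61 (adjusted p = 0.00126), Cdkn1a by 0.58 (adjusted p = 1.96e-06) and Cdkn2d by 0.76 (adjusted p = 0.00124), with ranges that overlap; the Cdkn2d call ended without the 4 libraries rich in Rn45s (0.54, adjusted p = 0.0577). Cdkn2c had 4.81 to 11.8 CPM in clone 14, against 12.2 to 17.7 CPM in clone 12, without overlap (-0.88, SE 0.11, adjusted p = 1.75e-06). Cdkn1c was the other lower gene. Cdkn1b had 51.8 to 92.9 CPM in clone 14 and 49.9 to 84.5 CPM in clone 12 (0.05, 95% interval -0.12 to 0.22). The 2 clones also differ in the fibroblast and epithelial markers given above, whose part in these differences was not tested.

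In clone 18, 3 members were higher and 1 lower than in clone 25, where 24.6% of all genes were called higher and 22.9% lower. Cdkn2a had 441, 574 and 400 CPM with HA, FLAG and SCR siRNA in clone 18, against 298, 264 and 248 CPM in clone 25 (log2 fold change 0.79, SE 0.13, edgeR adjusted p = 9.23e-05). Cdkn2c had 21.5, 32.0 and 20.2 CPM in clone 18, against 12.8, 12.4 and 13.3 CPM in clone 25 (0.91, SE 0.18, adjusted p = 0.000502). Cdkn1b went the other way, with 26.8, 28.7 and 24.6 CPM in clone 18, against 55.5, 65.6 and 55.4 CPM in clone 25 (-1.14, SE 0.14, adjusted p = 2.20e-06). The 6 libraries of clone 18 with an mCherry construct had 25.6 to 36.1 CPM of Cdkn1b, also below every library of the other 3 clones. Cdkn1a, Cdkn2b and Cdkn2d were not called. These are 3 libraries per clone, with different siRNAs, and n is 1 clone on each side.

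Between tagged and untagged clones at SCR siRNA 0 of 7 members were called, and edgeR called 0 of 13233 genes (0.0%), with 442 genes and 0 members at an unadjusted p under 0.05. Cdkn1a had 82.9 and 57.3 CPM in tagged clones 14 and 12, against 67.3 and 71.1 CPM in untagged clones 18 and 25. With the clone differences above, the 95% interval for Cdkn1b was -0.60 to 1.87 on the log2 scale and for Cdkn2a -1.37 to 0.96.

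**Figure D4:**
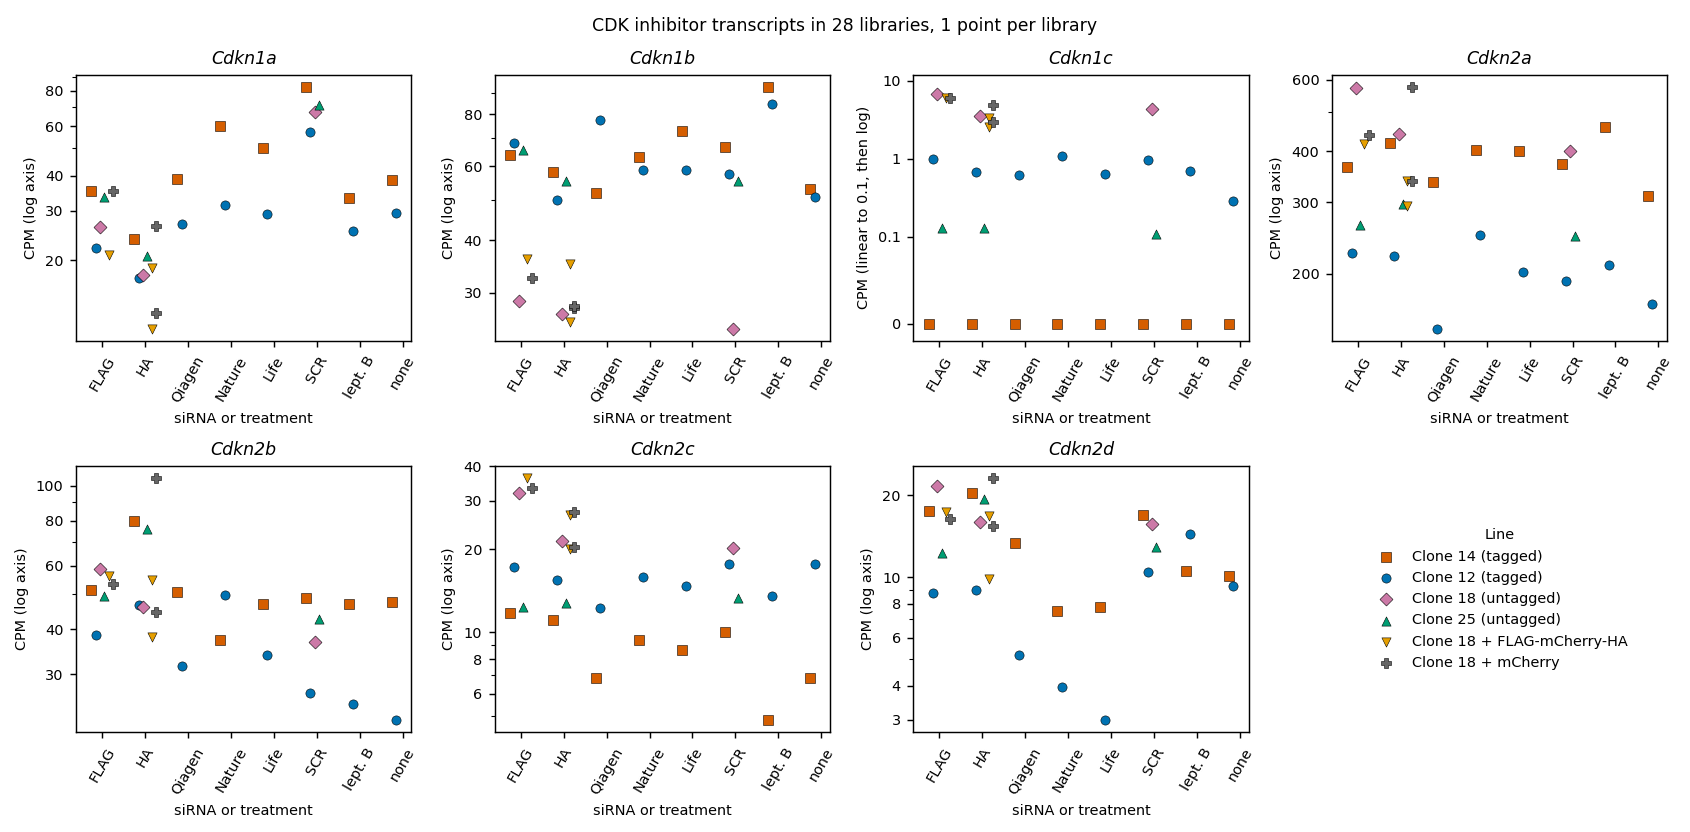
CPM of each member in the 28 libraries (vertical axes, logarithmic except below 0.1 for Cdkn1c), by siRNA or treatment on the horizontal axis, with lines by colour and symbol; none is untreated. Cdkn1a is highest with SCR siRNA in each of the 4 clones, and Cdkn1b is lowest in clone 18 and its mCherry lines.

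The mCherry lines of clone 18 differ in whether their construct carries the FLAG and HA tags. Cdkn1a had 11.4 and 18.8 CPM with HA siRNA and 21.0 CPM with FLAG siRNA in FLAG-mCherry-HA cells, against 13.0, 26.5 and 35.4 CPM in mCherry cells. It was lower in 3 of 3 pairs (log2 fold change -0.49, SE 0.12, edgeR adjusted p = 0.443). Cdkn2a was lower in 3 of 3 pairs too (-0.35, SE 0.13, edgeR adjusted p = 0.529). edgeR called 0 genes (0.0%), with 1390 genes and 2 members at an unadjusted p under 0.05. Parental clone 18 had 17.7 CPM of Cdkn1a with HA siRNA and 26.3 CPM with FLAG siRNA.

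The partners of these inhibitors were described with lists chosen with earlier results of these data known. Of 12 genes for kinases, cyclins and the replication clamp Pcna, which the inhibitors bind, 0 were higher and 2 lower with the tag siRNAs against SCR siRNA in tagged clones, Ccnd1 and Ccne2, a cyclin E gene (-0.51, adjusted p = 0.0259). Ccne2 was called with FLAG siRNA (-0.66, adjusted p = 0.0236) and not with HA siRNA (-0.37, adjusted p = 0.155). With the pooled cyclin D1 siRNAs 0 were higher and 6 lower, among them Ccnd1, Ccne1, the other cyclin E gene (-1.004, adjusted p = 4.11e-05), Ccnd3 (-0.77, adjusted p = 0.0106) and Ccnb1, a mitotic cyclin (-0.64, adjusted p = 0.0109). Over all genes 3.86% were called in either direction with the tag and 5.40% with the cyclin D1 siRNAs. Ccnd1, counted in both, is the gene these siRNAs target. The single siRNAs were not alike: Ccne1 was at -2.43 (Qiagen), -0.63 (Life) and 0.04 (Nature), and Ccnd3 at -0.72 (Qiagen), -1.90 (Life) and 0.30 (Nature). Ccnd2 was at 0.15 (Qiagen), 0.48 (Life) and -2.21 (Nature). Of these, Ccne1 with Qiagen and Life siRNA, Ccnd3 with Life siRNA and Ccnd2 with Nature siRNA passed the test. Ccnb1 was called with Nature (-0.84) and Life siRNA (-0.68) and was at -0.40 with Qiagen siRNA. The list's median log2 fold change was -0.23 with the tag and -0.52 with the cyclin D1 siRNAs, beside 0.03 and 0.02 over all genes. In untagged clones 0 of the 12 were called with the pooled tag siRNAs, and the median was -0.15, beside -0.01 over all genes. With FLAG siRNA alone 1 was lower there, where 2.02% of all genes were called, and with HA siRNA alone 0 were called.

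Of 13 tested genes of ubiquitin ligases and cofactors that remove p27, p21 or p57, only Skp2, the receptor for p27, was called with the tag siRNAs in tagged clones (-0.47, SE 0.11, edgeR adjusted p = 0.0187). With the pooled cyclin D1 siRNAs 0 were called. By single siRNA 0 were higher, and 1 (Qiagen), 3 (Nature) and 1 (Life) were lower. Over all genes 5.33%, 8.56% and 8.29% were called with these siRNAs. Skp2 was at -0.76 with HA siRNA (adjusted p = 0.00201) and -0.19 with FLAG siRNA (adjusted p = 0.562), and in untagged clones the 1 gene called was Skp1a (-0.38, adjusted p = 0.0283). Between these kinds of siRNA, Skp2 was lower with the tag siRNAs (-0.73, SE 0.08, adjusted p = 2.42e-05). The list's median was -0.05 with the tag and -0.14 with the cyclin D1 siRNAs, beside 0.03 and 0.02 over all genes. Over all genes 3.86% were called in either direction with the tag siRNAs in tagged clones. Of 19 tested p53 target genes other than Cdkn1a, 3 were higher and 0 lower there, opposite in direction to Cdkn1a. They were Ei24 (0.85, adjusted p = 0.000803), Btg2, an antiproliferative gene (0.90, adjusted p = 0.0151), and Tnfrsf10b, a death receptor (0.38, adjusted p = 0.0423). The median of the list was 0.28, beside 0.03 over all genes, and with the pooled cyclin D1 siRNAs 0 were called and the median was -0.04. By single siRNA, 2 were higher and 1 lower with Qiagen, 1 higher and 2 lower with Nature, and 1 higher and 0 lower with Life siRNA. Ei24 was called higher with Nature (0.85, adjusted p = 0.00124) and Life siRNA (0.64, adjusted p = 0.0112), and was at -0.39 with Qiagen siRNA. With SCR siRNA against untreated cells, where Cdkn1a was higher, Ei24 was lower (-0.66, adjusted p = 0.0160) and no other gene of the list was called. Of all genes tested, 5.29% were called in either direction in that comparison, so 1 gene of 19 is near that share. In untagged clones Ei24 was again higher with the tag siRNAs (0.71, adjusted p = 0.00388). It was the 1 gene of the list called there, where 2.68% of all genes were called in either direction. The list's median in untagged clones was 0.13, beside -0.01 over all genes. All libraries come from cells made cancerous with RAS and DNP53, and p53 activity was not measured.

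Of 34 transcriptional regulators of the inhibitor genes, 0 were higher and 1 lower with the tag siRNAs in tagged clones. The lower gene was Kdm6b, a demethylase of histone H3 that acts at the Cdkn2a locus (-0.63, adjusted p = 0.0326). Over all genes 3.86% were called in either direction. With the pooled cyclin D1 siRNAs 0 of the 34 were called. By single siRNA, 1 was higher and 1 lower with Qiagen and with Nature, and 1 higher and 2 lower with Life siRNA. Over all genes 5.33%, 8.56% and 8.29% were called with these siRNAs. Kdm6b was at -0.94 with HA siRNA (adjusted p = 0.00809) and -0.32 with FLAG siRNA (adjusted p = 0.492). In untagged clones 2 were higher and 0 lower with the tag siRNAs, Junb, an AP-1 factor (1.07, adjusted p = 0.00413), and Id1, a relative of Id2 (1.11, adjusted p = 0.0210); in tagged clones Junb was at 0.69 (adjusted p = 0.0533). With leptomycin B, where 9.99% of all genes were called in either direction, 7 were higher and 2 lower, among them Id2, an inhibitor of basic helix-loop-helix factors (1.37, adjusted p = 0.000170), Mxi1, an antagonist of MYC (0.70, adjusted p = 0.00310), Cbx8, a Polycomb protein (1.14, adjusted p = 0.00378), and Klf6, an activator of Cdkn1a (-0.73, adjusted p = 0.00597). The list's median was 0.01 with leptomycin B, beside 0.03 over all genes. With SCR siRNA against untreated cells 1 regulator was higher and 1 lower, where 5.29% of all genes were called in either direction. Klf4, an activator of Cdkn1a, was higher (0.91, adjusted p = 0.00179) and Cbx7 was lower (-0.78, adjusted p = 0.0210). Any part of Klf4 in the level of Cdkn1a was not tested. Of 16 pocket protein and E2F target genes, which lie downstream of the inhibited kinases, 0 were higher and 4 lower with the tag siRNAs and 0 higher and 8 lower with the pooled cyclin D1 siRNAs, where 3.86% and 5.4% of all genes were called in either direction. Their medians were -0.30 and -0.47, beside 0.03 and 0.02 over all genes. Rb1, the pocket protein itself, was lower with the tag siRNAs (-0.74, adjusted p = 0.00220), and Asf1b, a histone chaperone, was lower with the pooled cyclin D1 siRNAs (-1.54, adjusted p = 6.81e-07). By siRNA, Rb1 was at -1.04 with HA and -0.43 with FLAG siRNA, the first alone called, and in untagged clones at -0.60 (adjusted p = 0.0151). Asf1b was at -1.93 with Nature and -2.31 with Life siRNA, both called, and -0.38 with Qiagen siRNA (adjusted p = 0.173). In untagged clones 0 of the 16 were higher and 1 lower with the pooled tag siRNAs, where 2.68% of all genes were called. The list's median there was -0.16, beside -0.01 over all genes. With FLAG siRNA alone 2 were lower in untagged clones, where 2.02% of all genes were called, with a median of -0.25. The difference between the tagged and untagged responses was called for 0 of the 16, where 1 gene of all those tested (0.00662%), Ccnd1, was called. With so few calls, this count does not show that the responses are alike.

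The genes whose pattern was most like each member were taken by Pearson r of log2 CPM over the 28 libraries after subtraction of line means, among 11771 genes. For Cdkn1a they were Dhrs7b (0.90), Pptc7 (0.83), Cmip (0.82), Fkbp1a (0.81) and Cdca4 (0.81). For Cdkn1b they began with Tob1 (0.83), for Cdkn1c with Tram1l1 (0.80), for Cdkn2a with Rabac1 (0.92), for Cdkn2b with BC003965 (0.90), for Cdkn2c with Efs (0.85) and for Cdkn2d with Tacc3 (0.85), a spindle gene, followed by Fen1 (0.82), a replication nuclease. These values describe the libraries and carry no test.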

How the data were processed

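Total RNA was extracted with Trizol the morning after transfection with RNAiMAX or treatment, and stranded poly(A) libraries were sequenced as single reads, per the labels' protocols. The submitters' processing notes name build mm10, HTSeq 0.6.1p1, Bowtie2 2.2.3, TopHat2 2.0.13, CASAVA 1.8.2 and FastQC; no source used here gives the annotation, the strand setting or what the n in the titles counts. The authors deposited raw counts per gene, with 24079 rows, of which 22 have no gene ID (at most 0.0137% of a library).

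CPM use TMM factors. edgeR 4.0.16 in R 4.3.3 (filterByExpr, robust quasi-likelihood) fitted 28 libraries in 15 groups, with 17 coefficients, 11 residual degrees of freedom, a biological coefficient of variation of 14.6% and Benjamini-Hochberg adjustment over all 15099 genes; called means adjusted p under 0.05. The clone, or the mCherry pair, was a block, since libraries of a clone come from 1 cell line; their deviations correlated (lowest r 0.834 in the tagged and 0.862 in the untagged clones, and 0.384 in a mCherry pair). SCR siRNA in tagged against untagged clones was fitted alone, without a block. The fit was checked on simulated data. Intervals use the t distribution. No pair of libraries was within sampling noise (378 pairs, lowest chi-square per degree of freedom 13.8).

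The 7 members and the 5 gene lists were chosen with earlier results of these data known. Named genes are the members, Ccnd1, Xpo1, up to 4 genes of a list with the smallest p, and the genes most alike in pattern. Alternatives were relative log expression factors, other filters, non-robust dispersion, no block, fits of a comparison's libraries alone, DESeq2 1.42.0, and leaving out each library or the 4 with over 2% Rn45s; leaving out all of clone 14 or of clone 12 was added after seeing the data.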

Additional observations from a re-analysis of the deposited data

Results flagged for a closer look

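In 2 cases the tagged clones moved in opposite directions with the same siRNA, by at least 0.25 on the log2 scale each; the difference was not tested, since each clone has 1 library per siRNA. Cdkn1b with Qiagen siRNA against SCR siRNA was at -0.37 in clone 14 and 0.42 in clone 12, from 51.8 and 77.3 CPM with Qiagen siRNA, against 66.8 and 57.6 CPM with SCR siRNA. Cdkn2b with Nature siRNA against SCR siRNA was at -0.39 in clone 14 and 0.90 in clone 12, from 37.4 and 49.7 CPM with Nature siRNA, against 48.8 and 26.7 CPM with SCR siRNA. Groups of 2 libraries are too small for a test of single outlying libraries.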

How the results depend on the processing

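Values here are numbers of the 7 members called. Without the clone as a replicate block 0 were called in all 15 comparisons of siRNAs and treatments that had a call, while the direction of Cdkn1a stayed the same; over all genes 0 to 139 were called in these comparisons. Fitting only the libraries of a comparison gave 0 for HA against FLAG siRNA, 1 for Nature siRNA, 2 each for HA siRNA, Qiagen siRNA and pooled tag siRNA in tagged clones, and 3 each for FLAG siRNA in untagged clones and leptomycin B. Calls over all genes moved too: these fits called 3959 genes for HA siRNA (620 in the full fit), 3283 for pooled tag siRNA (583), 2558 for FLAG siRNA in untagged clones (305), 4494 for leptomycin B (1508), 1037 for Qiagen siRNA (805), 282 for Nature siRNA (1293) and 206 for HA against FLAG siRNA (503). Without all clone 12 libraries the count was 0 for FLAG, Nature, Life and pooled cyclin D1 siRNA, HA against FLAG siRNA, SCR siRNA against untreated and leptomycin B, and 1 for tag against cyclin D1 siRNA and tag siRNA against untreated. Over all genes this fit called 6 for FLAG siRNA (328 in the full fit), 143 for Nature siRNA (1293), 197 for Life siRNA (1251), 33 for pooled cyclin D1 siRNA (815), 159 for HA against FLAG siRNA (503), 72 for SCR siRNA against untreated (799) and 88 for leptomycin B (1508). Without all clone 14 libraries it was 0 for tag against cyclin D1 siRNA, HA against FLAG siRNA, SCR siRNA against untreated, tag siRNA against untreated and leptomycin B, with 78, 62, 24, 142 and 319 genes called over all, in that order. With only 1 tagged clone left, fewer samples remain in these fits; otherwise the cause was not tested. For tag siRNA against untreated 4 were called with DESeq2, with relative log expression factors, and when genes averaging under 1 CPM were dropped. DESeq2 gave 2 for leptomycin B, no filter gave 1 for Nature siRNA, and cyclin D1 siRNA against untreated had 1 when genes averaging under 1 CPM were dropped. Without the 4 libraries rich in Rn45s, 1 was called for Life siRNA and 1 for cyclin D1 siRNA against untreated.

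Leaving out each library in turn gave 0 to 2 for Nature siRNA, 1 to 1 for Life siRNA, 1 to 2 for pooled cyclin D1 siRNA, 1 to 3 for tag against cyclin D1 siRNA, 0 to 1 for HA against FLAG siRNA, leptomycin B and cyclin D1 siRNA against untreated, and 0 to 2 for tag siRNA against untreated. It gave 6 throughout for clone 14 against clone 12 and 4 throughout for clone 18 against clone 25. The Cdkn1a calls for FLAG, HA and Qiagen siRNA, pooled tag siRNA and SCR siRNA against untreated held in each of these fits. Depth limits Cdkn1c, with at most 80 counts in clone 12 and 6 in clone 25.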
